A study of Mus musculus with 3 samples.

Results

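Notch1, Notch2, Notch3, Rbpj and Hey1 are the receptors and nuclear effectors of the Notch pathway on the imaging panel, 5 of its 258 gene columns. They were taken by name. Transcripts were imaged in single cells of fixed mammary tumours cut from paraffin, from MMTV-PyMT mice, in which the mouse mammary tumour virus promoter drives the polyoma middle T oncogene in mammary epithelium. The 3 tumours, 1 section each, form a single untreated group labelled WT; neither the meaning of WT nor the age of the mice is stated in the labels. Comparisons were therefore made within each section, between cell types and between positions, with the tumour as the replicate. P-values measure how much the differences within a section vary between these 3 sections, since the tumour enters as a block. For cell types, all gated classes entered a single fit and shared its estimate of the spread.

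In Notch signalling, a receptor on one cell is bound by a Delta-like or Jagged ligand on a touching cell, and its intracellular part is then cut free and enters the nucleus. There it joins Rbpj, the DNA-binding protein of the pathway, and switches on target genes, of which the Hes and Hey repressors are the best known. Notch1 acts in many epithelial and blood vessel cells, Notch2 in many tissues including myeloid cells, and Notch3 is known as the receptor of mural cells, the pericytes and smooth muscle cells that wrap vessels. Hey1 is a target of the pathway and itself a repressor. In the mammary gland Notch receptors take part in the choice between luminal and basal cell fate. A transcript count tells the level of the receptor message, not whether the receptor has been cleaved.

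The 5 genes lie on 4 chromosomes of the mouse build GRCm38.p6 in the RefSeq annotation: Notch1 at chr2:26457902-26503822, Notch2 at chr3:98013538-98150367, Hey1 at chr3:8663359-8667038, Rbpj at chr5:53555779-53657445 and Notch3 at chr17:32120820-32166896. RefSeq promoter windows run from 250 bases before to 50 bases after a start annotated for a gene. They were present for 4 of the 5 genes. Both strands were searched for TGGGAA, the core of the site that Rbpj binds, whose reverse complement is TTCCCA. Of all 32851 mouse promoter windows in that table, 8397 (25.6%) held it. The windows of Notch1, Notch2 and Notch3 held none, 1 Rbpj window held 2, and a second that overlaps it held 1. Both Rbpj windows lie inside the gene span given above. The region at the first base of that span was not searched. The windows of Rbpj, chr5:53590096-53590395 on the plus strand, and of Notch3, chr17:32166841-32167140 on the minus strand, are printed because these 2 members were higher in a stromal cell type than in tumour epithelial cells. Capitals mark the searched letters.
Rbpj: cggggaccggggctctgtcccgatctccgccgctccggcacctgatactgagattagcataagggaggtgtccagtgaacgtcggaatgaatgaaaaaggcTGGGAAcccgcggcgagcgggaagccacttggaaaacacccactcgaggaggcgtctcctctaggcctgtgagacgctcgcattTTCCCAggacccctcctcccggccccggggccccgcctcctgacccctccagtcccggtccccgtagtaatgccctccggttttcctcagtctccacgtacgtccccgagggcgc
Notch3: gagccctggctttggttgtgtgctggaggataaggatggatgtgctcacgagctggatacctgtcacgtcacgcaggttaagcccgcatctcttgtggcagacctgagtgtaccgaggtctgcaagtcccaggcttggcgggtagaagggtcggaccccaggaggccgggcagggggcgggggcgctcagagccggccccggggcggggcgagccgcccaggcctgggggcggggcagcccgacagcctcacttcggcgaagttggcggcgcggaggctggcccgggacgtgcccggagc
A match of letters is a description of the window and was not tested as a binding site.

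Sections 1, 2 and 3 listed 663145, 513963 and 786165 segmented cells with 71492483, 60759690 and 78051090 panel transcripts, and no cell identifier was shared between sections. After cells with fewer than 20 panel transcripts or an extreme volume were set aside, 619770, 453995 and 673638 cells remained, with a median of 98, 106 and 94 transcripts. The 27 Blank columns, codes that match no gene and so measure false detections, held 0.503%, 0.481% and 0.496% of the counts. Cells were named by marker genes that exclude all 5 members. The endothelial and macrophage gates had to use markers that were not all above the highest Blank, and the fibroblast gate took 141196, 106481 and 118675 cells, in which Gata3, an epithelial marker, still stood at 33.2, 42.9 and 24.2 transcripts per 1000 panel transcripts, against 42.8, 56.7 and 29.6 in tumour epithelial cells. A second set of stricter stromal gates, which demand more transcripts of the stromal list than of the epithelial list, was added after these values were seen. Its fibroblast gate also demands at least 20% of a cell's panel transcripts from the fibroblast list. The basal keratin gate was left as it was. Cells that no longer passed a stromal gate could then join another class. The stricter set lowered Gata3 to 9.07, 11.2 and 7.05 per 1000 in fibroblasts, and results under both sets are given. Spill-over of transcripts between touching cells at segmentation was not tested. All levels that follow are transcripts per 1000 panel transcripts, in tumours 1, 2 and 3 in that order; detection also depends on each gene's probes, so genes are compared across cell types and not with each other.

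Tumour epithelial cells, 259985, 166547 and 290263 in number, carried all 5 members above every Blank in all 3 tumours. Notch1 stood at 19.8, 31.6 and 16.9, a mean of 22.7 ± 7.77 (SD, n = 3 tumours). Notch2 stood at 11.7, 12.6 and 8.66 (mean 11 ± 2.07), and Notch3 at 10.6, 14.5 and 10.9 (mean 12 ± 2.16). All 3 receptors were highest in tumour 2. The effectors were sparser. Rbpj stood at 1.07, 0.760 and 0.614 (mean 0.814 ± 0.232), and Hey1 at 1.89, 3.62 and 1.15 (mean 2.22 ± 1.27). The highest Blank in the same cells was at 0.387, 0.382 and 0.344, so that Rbpj lay closest to the false-detection level and Hey1 varied most between tumours relative to its mean. At least 1 Notch1 transcript was found in 75.5%, 92.2% and 76.4% of these cells, at a median of 102, 129 and 117 transcripts per cell. At least 1 Hey1 transcript was found in 16.7%, 35.3% and 12.9%, and 1 of the highest Blank in 4.16%, 5.36% and 4.36%.

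Pericytes held the most Notch3 of the 6 cell classes. The gate, on Rgs5 and Pdgfrb, took 827, 848 and 778 cells, in which Pdgfrb stood at 33.5, 28.2 and 25.4, against 0.524, 0.422 and 0.398 in tumour epithelial cells. Notch3 stood at 37.0, 32.2 and 30.9 in pericytes, against 10.6, 14.5 and 10.9 in tumour epithelial cells. Every pericyte value was above every epithelial one. The log2 fold change was 1.51 ± 0.15 (SE, n = 3 tumours; 2.84-fold; edgeR quasi-likelihood test with the tumour as block, adjusted p = 8.6e-07), where the median over all 258 genes was -0.22. At least 1 Notch3 transcript was found in 84.4%, 89.6% and 88.4% of pericytes, against 61.6%, 75.6% and 67.4% of tumour epithelial cells. Cells with at least 50 transcripts, among them 713, 759 and 708 pericytes, were also thinned to 50. The shares were then 69.3%, 69.3% and 69.5% in pericytes, against 39.8%, 48.9% and 41.5% in tumour epithelial cells.

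The other 4 members were lower in pericytes than in tumour epithelial cells. All 5 members passed the test, 1 higher and 4 lower, where 24% of the 258 genes were higher and 32.9% lower. Of the 132 genes above the highest Blank in every section, 22 were higher and 75 lower, with a median of -0.53 on the log2 scale. Notch1 stood at 12.8, 22 and 12.4 in pericytes, lower than in the epithelium of the same tumour in each case (log2 fold change -0.53 ± 0.11, adjusted p = 0.0011 in edgeR), although the ranges of the groups overlapped. Notch2 stood at 6.70, 7.38 and 4.81 in pericytes, below every epithelial value (-0.81 ± 0.10, adjusted p = 9.3e-06 in edgeR). Hey1 stood at 1.16, 2.32 and 0.789 in pericytes (-0.63 ± 0.16, adjusted p = 0.0036 in edgeR). Rbpj, at 0.688, 0.50 and 0.318 in pericytes, was below the highest Blank of those cells (1.11, 1.82 and 1.10) in all 3 tumours, so its fold change of -0.72 ± 0.13 on the log2 scale compares a false-detection level with a measured one. Hey1 was above the highest Blank of pericytes in 2 of 3 tumours. In tumour 2 that Blank was number 16, and cells holding it were not removed from the pericytes. Without the tumour as a block the calls of Notch1, Rbpj and Hey1 were lost.

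Under the stricter gates, which took 1895, 1479 and 1556 pericytes, Notch3 stood at 47.7, 46.7 and 42.0 in pericytes, 3.83-fold above the epithelium (log2 fold change 1.94 ± 0.11, adjusted p = 5.4e-10 in edgeR), and the other 4 members were again lower, where 30.6% of genes were higher and 46.9% lower. Of the 132 genes above the highest Blank, 30 were then higher and 89 lower, with a median of -0.91 on the log2 scale. Gata3 stood at 6.63, 11.6 and 4.79 in these pericytes, against 18.2, 30.5 and 14.6 in those of the first gate. Hey1 was then below the highest Blank in pericytes of all 3 tumours.

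Endothelial cells had less Notch2 and Notch3 than tumour epithelial cells, and Notch1 at a level that overlapped theirs. The gate, on Pecam1 and Cdh5, took 3956, 2593 and 1705 cells, with Pecam1 at 27.4, 23.8 and 18.1, against 0.289, 0.320 and 0.238 in tumour epithelial cells. Notch1 stood at 19.7, 25.8 and 18.4 in endothelial cells, which overlaps the epithelial range of 16.9 to 31.6 (log2 fold change -0.06 ± 0.11, adjusted p = 0.65 in edgeR). Its direction hung on the scaling and on tumour 2. With TMM factors, which centre the bulk of the genes, it was higher in endothelial cells (0.33, adjusted p = 0.028 in edgeR), as with DESeq2 (0.29, adjusted p = 0.031), and without tumour 2 it was at 0.06; the median gene of this comparison was at -0.37. Notch2 stood at 4.03, 5.43 and 3.81 in endothelial cells, against 11.7, 12.6 and 8.66 in tumour epithelial cells (-1.31 ± 0.10, adjusted p = 4.5e-08 in edgeR). Notch3 stood at 3.71, 6.29 and 4.83 in endothelial cells, against 10.6, 14.5 and 10.9 in tumour epithelial cells (-1.29 ± 0.15, adjusted p = 2.1e-06 in edgeR). Neither receptor's ranges overlapped.

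Of the 5 members, 0 were higher and 4 lower in endothelial cells, where 23.6% of the 258 genes were higher and 46.5% lower. Of the 132 genes above the highest Blank in every section, 19 were higher and 84 lower, with a median of -0.74 on the log2 scale. Hey1, a target of Notch in vessels, stood at 1.07, 2.17 and 0.835 in endothelial cells, against 1.89, 3.62 and 1.15 in tumour epithelial cells (-0.68 ± 0.16, adjusted p = 0.0014 in edgeR), lower in 3 of 3 tumours with overlapping ranges. That call was lost with TMM factors (-0.29, adjusted p = 0.13 in edgeR), with DESeq2 (-0.33, adjusted p = 0.058) and without the tumour block. Under the stricter gates the same number of members, 4, was lower, with Notch2 at -1.80 ± 0.12 and Notch3 at -1.62 ± 0.11, where 29.1% of genes were higher and 50% lower. Of the 132 genes above Blank, 28 were then higher and 87 lower, with a median of -0.95. Rbpj, at 0.576, 0.489 and 0.297 in endothelial cells, was below the highest Blank of those cells (0.619, 0.676 and 0.778) in each tumour. The ligands of the pathway went the other way: of the 6 other Notch genes on the panel (Dll1, Dll3, Dll4, Jag1, Jag2 and Hes1), 3 were higher and 0 lower in endothelial cells, Dll4 by 4.67 ± 0.18, Jag2 by 3.39 ± 0.23 and Jag1 by 0.76 ± 0.25 on the log2 scale. The same 3 ligands were higher in pericytes, by 1.93 ± 0.17, 0.99 ± 0.22 and 1.37 ± 0.25, beside Pecam1 at 2.50, 1.91 and 1.08 in pericytes. The part of endothelial transcripts in these values was not tested. Jag2, at 2.27, 1.35 and 1.04 in pericytes, was above the highest Blank of those cells (1.11, 1.82 and 1.10) in tumour 1 only.

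Set directly against each other, pericytes and endothelial cells of the same tumours split the receptors. Notch3 was 6.95-fold higher in pericytes (log2 fold change 2.80 ± 0.16, adjusted p = 2.7e-09 in edgeR, n = 3 tumours), and no values overlapped. Notch1 was lower in pericytes (-0.47 ± 0.11, adjusted p = 0.0042 in edgeR), in 3 of 3 tumours, a call that was lost without tumour 1 (-0.40, adjusted p = 0.11 in edgeR). Notch2 was higher in pericytes (0.50 ± 0.10, adjusted p = 0.0015 in edgeR), in 3 of 3 tumours, and lost its call with TMM factors (0.27, adjusted p = 0.095 in edgeR) and with DESeq2 (0.25, adjusted p = 0.094). Of the 5 members, 2 were thus higher and 1 lower, where 27.5% of genes were higher and 13.6% lower. Under the stricter gates the Notch3 difference grew to 3.55 ± 0.12 and that of Notch1 to -0.79 ± 0.11, where 24% of genes were higher and 13.6% lower. Hey1 stood at 1.16, 2.32 and 0.789 in pericytes, against 1.07, 2.17 and 0.835 in endothelial cells, and was not called; under the stricter gates it was lower in pericytes (-0.44 ± 0.16, adjusted p = 0.040 in edgeR), where it was below the highest Blank. That call was lost without tumours 1, 2 and 3 in turn (adjusted p = 0.10, 0.16 and 0.16 in edgeR), with gate markers left out (0.083) and with cell volume (0.15).

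Macrophages held the most Rbpj of the 6 cell classes. The gate, on Adgre1, Cx3cr1, Cd163 and Folr2, took 3887, 2328 and 764 cells. It rested mainly on Cx3cr1, at 31.2, 25.8 and 16.5 in macrophages, against 1.12, 1.06 and 0.476 in tumour epithelial cells. The section totals of Adgre1, Cd163 and Folr2 were below the highest Blank in all 3 sections. Since the gate needed at least 2 markers, each macrophage held at least 1 of these. Rbpj stood at 1.78, 1.40 and 1.09 in macrophages, against 1.07, 0.760 and 0.614 in tumour epithelial cells. It was higher in macrophages in 3 of 3 tumours (log2 fold change 0.81 ± 0.12, 1.75-fold, adjusted p = 6e-05 in edgeR), and every macrophage value was above every epithelial one. The call was lost without the tumour block. In tumour 3 one Blank, number 16, stood at 1.60 in macrophages, above Rbpj, and a few cells held it in large numbers. Without the cells of that Blank, Rbpj was at 1.80, 1.39 and 1.08, against a highest Blank of 0.402, 0.465 and 0.537. This removal takes Blank 16 out by construction, so Rbpj is then set against the other Blanks only.

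Under the stricter gates Rbpj reached 2.51, 2.80 and 1.95 in macrophages (1.58 ± 0.16, 2.99-fold, adjusted p = 3.8e-07 in edgeR), where 38.4% of genes were higher and 27.5% lower. The highest Blank of these macrophages was at 0.445, 0.548 and 3.76, so that Rbpj was above it in 2 of 3 tumours. Without the cells of Blank 16, Rbpj was at 2.53, 2.74 and 1.95, and the highest of the other Blanks at 0.433, 0.556 and 0.683. Notch3 was lower in macrophages, at 6.32, 10.9 and 7.67 (-0.55 ± 0.15, adjusted p = 0.0086 in edgeR), and fell further, to 3.95, 5.38 and 4.71, under the stricter gates (-1.36 ± 0.11). The call under the first gates was lost without tumour 3 (-0.56, adjusted p = 0.074 in edgeR). Of the 5 members, 1 was higher and 1 lower in macrophages, where 28.3% of genes were higher and 15.1% lower. Notch2 stood at 12.8, 13.4 and 8.48 in macrophages, against 11.7, 12.6 and 8.66 in tumour epithelial cells, with overlapping ranges, and was not called under either set of gates. With the gates as fixed, Notch1 and Hey1 were not called by edgeR and were called lower by DESeq2 (-0.39, adjusted p = 0.0050, and -0.48, adjusted p = 0.0072). With the stricter gates edgeR called both lower, at -0.62 ± 0.11 and -1.16 ± 0.16; Hey1 was above the highest Blank there in 2 of 3 tumours.

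Fibroblasts gave a different answer under each gate. With the gate as fixed, 1 of the 5 members was lower and 0 higher, where 11.6% of genes were lower and 20.2% higher: Notch1, at 16.1, 24.7 and 13.5 in fibroblasts (log2 fold change -0.33 ± 0.11, adjusted p = 0.040 in edgeR). That call was lost without any one of the tumours (adjusted p of 0.17, 0.092 and 0.13 in edgeR without tumours 1, 2 and 3). With the stricter gate, which took 28087, 24513 and 22695 cells and held Col1a1 at 360, 436 and 442, all 5 members were lower, where 28.3% of genes were higher and 53.1% lower. Of the 132 genes above the highest Blank, 29 were higher and 91 lower there, with a median of -1.10 on the log2 scale. Notch1 stood at 5.74, 7.77 and 5.27 in these fibroblasts, against 19.8, 31.6 and 16.9 in tumour epithelial cells (-1.84 ± 0.11, adjusted p = 6.1e-10 in edgeR). Notch3, at 3.21, 3.66 and 3.55, and Notch2, at 4.90, 4.21 and 3.52, also stood apart from every epithelial value. Hey1, at 0.490, 0.650 and 0.262, and Rbpj, at 0.546, 0.439 and 0.287, were below the highest Blank of these cells (0.982, 0.923 and 1.21). The stricter gate itself demands at least 20% of a cell's panel transcripts from the fibroblast list. So large a share of Col1a1 lowers the level of every other gene by construction. With gate markers left out of the total, Notch1 was at -1.03 on the log2 scale and Rbpj was no longer called (-0.16, adjusted p = 0.35 in edgeR).

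Pericytes also stood apart from fibroblasts in Notch3. It was 3.56-fold higher in pericytes under the gates as fixed (log2 fold change 1.83 ± 0.15, adjusted p = 1.5e-07 in edgeR) and 13.1-fold higher under the stricter gates (3.72 ± 0.12, adjusted p = 1.7e-12 in edgeR), with no overlap in either; under the stricter gates 36.8% of genes were higher and 20.5% lower. Of the 5 members, 1 was higher and 2, Notch2 and Rbpj, lower with the fixed gates, where 16.3% of genes were higher and 29.5% lower. Notch1 turned from -0.20 ± 0.11, which was not called, to 0.92 ± 0.11 under the stricter gates (adjusted p = 4.3e-06 in edgeR), so its direction hung on the gate. Notch2 lost its call under the stricter gates (-0.015, adjusted p = 0.92 in edgeR). Hey1 (-0.36 ± 0.16 and 0.60 ± 0.16 under the fixed and stricter gates) and Rbpj (-0.56 and 0.27) also changed sign, but under the stricter gates both were below the highest Blank in pericytes and fibroblasts of all 3 tumours, so those values compare false-detection levels. Notch3 kept its direction and its call under each of 21 alternatives. The fibroblast share that the stricter gate demands enters all the stricter values of this comparison.

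Basal keratin cells, gated on Krt5, Krt14 and Trp63, had all members at levels that overlapped those of tumour epithelial cells. Of the 5 members 0 were called by edgeR (1 at an unadjusted p under 0.05) and 0 by DESeq2, where 8.53% of the 258 genes were higher and 8.14% lower. Notch1 stood at 21.1, 25.1 and 21 in basal keratin cells, against 19.8, 31.6 and 16.9 in tumour epithelial cells, and Notch3 at 9.54, 11 and 10.7, against 10.6, 14.5 and 10.9. Hey1 was the member farthest from 0, at 1.77, 2.23 and 0.893 in basal keratin cells (-0.37 ± 0.15, adjusted p = 0.11 in edgeR), lower in 3 of 3 tumours. In the stricter set the basal keratin gate is the same, but the class took in cells that a fixed stromal gate had also passed. In this wider class 1 member, Notch3, was lower, at 8.81, 9.59 and 10.2 (-0.32 ± 0.11, adjusted p = 0.038 in edgeR). There 15.5% of genes were higher and 11.6% lower. Jag2, a ligand, was the only one of the 6 other Notch genes called, higher by 2.67 ± 0.22 on the log2 scale.

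**Figure D1:**
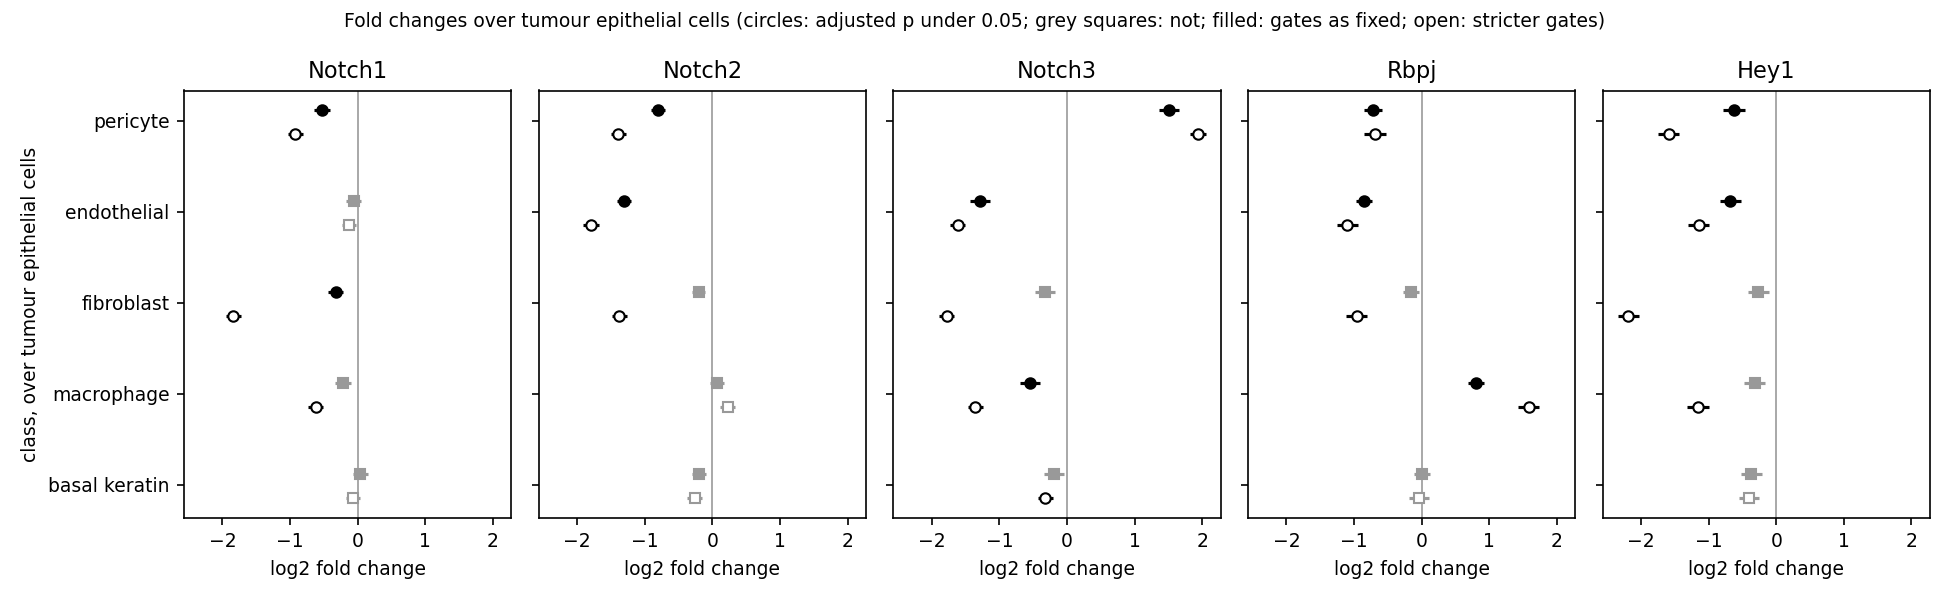
Log2 fold change of each member in 5 classes over tumour epithelial cells; circles passed an adjusted p of 0.05 and grey squares did not, filled symbols are the gates as fixed, open ones the stricter stromal gates, and bars are standard errors. Notch3 in pericytes (1.51) and Rbpj in macrophages (0.81) lie above 0, and most of the other called values lie below it.

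The order of the classes by mean level differed between members. For Notch3, under the fixed gates, it ran from pericytes (33.4 ± 3.19) through tumour epithelial (12 ± 2.16), basal keratin (10.4 ± 0.763), fibroblast (9.53 ± 1.29) and macrophage cells (8.29 ± 2.34) to endothelial cells (4.94 ± 1.29); neighbours among the 4 middle classes overlapped, and pericytes and endothelial cells overlapped none. For Notch2 it ran from macrophages (11.6 ± 2.67), tumour epithelial cells (11 ± 2.07), basal keratin cells (9.54 ± 1.22) and fibroblasts (9.43 ± 0.865) to pericytes (6.30 ± 1.33) and endothelial cells (4.42 ± 0.876), with a gap only between fibroblasts and pericytes. For Notch1 all 6 classes overlapped, from tumour epithelial cells (22.7 ± 7.77) to pericytes (15.7 ± 5.45), and tumour 2 was highest in each class. For Rbpj macrophages (1.42 ± 0.347) stood over tumour epithelial cells (0.814 ± 0.232), and endothelial cells (0.454 ± 0.143) came last. For Hey1 the order ran from tumour epithelial cells (2.22 ± 1.27) to endothelial cells (1.36 ± 0.714), with all ranges overlapping and tumour 2 highest in each class. Fibroblasts moved down the order under the stricter gates, where the demanded share of fibroblast transcripts lowers their other genes. They were lowest for Notch3 (3.47 ± 0.23), with a range that overlapped that of endothelial cells (3.90 ± 0.472). For Notch1 they were lowest as well (6.26 ± 1.33), below every value of the other 5 classes. For Notch2 they stood at 4.21 ± 0.692, beside pericytes at 4.20 ± 0.835, and the gap lay between basal keratin cells (9.09 ± 0.88) and fibroblasts. The 6 classes and 3 tumours under the fixed gates gave 18 points. Points share sections, and all genes of a point are divided by the same panel total. Across these points the genes most like 4 of the members were Ets2 for Notch1 (Pearson r = 0.88), Timp2 for Notch2 (0.98), Myl9 for Notch3 (0.76) and Crb3 for Hey1 (0.86). Next in the order came Irf2 and Dll1 for Notch1 (0.60 each), Ikbkg and Cd14 for Notch2 (0.97 and 0.96), Pdgfrb and Pdgfa for Notch3 (0.75 and 0.72), Timp2 and Cd14 for Rbpj (0.88 each), and Bglap3 and Nr4a2 for Hey1 (0.85 each). Ets2 (0.97), Timp2 (0.96) and Myl9 (0.76) were first for Notch1, Notch2 and Notch3 under the stricter gates as well. Notch1 was then followed by Nfkbia and Nr4a1 (0.90 and 0.88), and the 3 genes most like Hey1 were others, Tead2, Lrp5 and Ccnd1 (0.96, 0.95 and 0.94). Myl9 is a myosin light chain of contractile cells.

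Within the tumour epithelium, cycling cells were set against cells without Mki67 or Top2a transcripts. Hey1 stood at 2.57, 3.95 and 1.43 in cycling cells, against 1.62, 3.53 and 1.07 in non-cycling cells. It was higher in cycling cells of 3 of 3 tumours but did not pass the test (log2 fold change 0.41 ± 0.15, adjusted p = 0.056 in edgeR), while DESeq2 called it (0.45, adjusted p = 0.0015). Rbpj stood at 1.25, 0.925 and 0.657 in cycling cells, against 0.996, 0.717 and 0.594 in non-cycling cells (0.28 ± 0.12, adjusted p = 0.10 in edgeR). Of the 5 members 0 were called by edgeR (2 at an unadjusted p under 0.05), where 8.53% of genes were higher and 19.4% lower, and 3 by DESeq2. Notch1 stood at 18.8, 27.6 and 15.7 in cycling cells, lower in 3 of 3 tumours than the 20.4, 32.7 and 17.7 of non-cycling cells, also without a call (-0.18 ± 0.08, adjusted p = 0.12 in edgeR). Of the 6 other Notch genes, the repressor Hes1 was higher in cycling cells (0.56, adjusted p = 0.0080 in edgeR) and the ligand Dll1 lower (-0.88, adjusted p = 0.0092).

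Near vessels, Hey1 was the member closest to a call in tumour epithelial cells. Near cells had an endothelial centre within 25 µm and far cells none within 75 µm. Hey1 stood at 2.18, 3.80 and 1.52 in near cells, against 1.76, 3.54 and 1.07 in far cells. It was higher near vessels in 3 of 3 tumours (log2 fold change 0.31 ± 0.10, 1.24-fold, adjusted p = 0.067 in edgeR). In cells without Mki67 or Top2a transcripts, a restriction added after the data were seen, it stood at 1.92, 3.76 and 1.53 in near cells, against 1.53, 3.44 and 1.0 in far cells (0.35 ± 0.10, adjusted p = 0.033 in edgeR). The call also appeared with DESeq2 (0.28, adjusted p = 0.011), without tumour 1 (0.31, adjusted p = 0.024 in edgeR) and without tumour 2 (0.41, adjusted p = 0.046), but not without tumour 3. Of 24 alternatives, 7 gave the call, and the log2 fold change ran from 0.13 to 0.43. With the stricter gates Hey1 was at 0.24 ± 0.10 (adjusted p = 0.18 in edgeR) and higher in 2 of 3 tumours, where 12.8% of genes were called.

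EdgeR called 0 of the 5 members near vessels (1 at an unadjusted p under 0.05) and 1, Hey1, by DESeq2, where 9.69% of genes were higher and 6.59% lower. Notch1 stood at 20.5, 30.8 and 16.5 in near cells, against 18.3, 31.4 and 16.9 in far cells, and Notch3 at 10.1, 14.2 and 10.9, against 10.7, 14.6 and 10.9. Beside these values, Mki67 was higher near vessels (0.60, adjusted p = 0.0016 in edgeR), and so were the endothelial transcripts Pecam1 (1.32) and Cdh5 (0.98) and the ligand Dll4 (0.74, adjusted p = 0.0029). Pecam1 stood at 0.531, 0.593 and 0.562 in near cells, against 0.212, 0.264 and 0.203 in far cells. In cells free of endothelial gate transcripts Hey1 was at 0.30 (adjusted p = 0.049 in edgeR). Over 10 distance classes Hey1 was at 2.37, 3.78 and 1.37 within 10 µm of an endothelial centre and at 1.49, 3.40 and 0.955 beyond 150 µm.

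**Figure D2:**
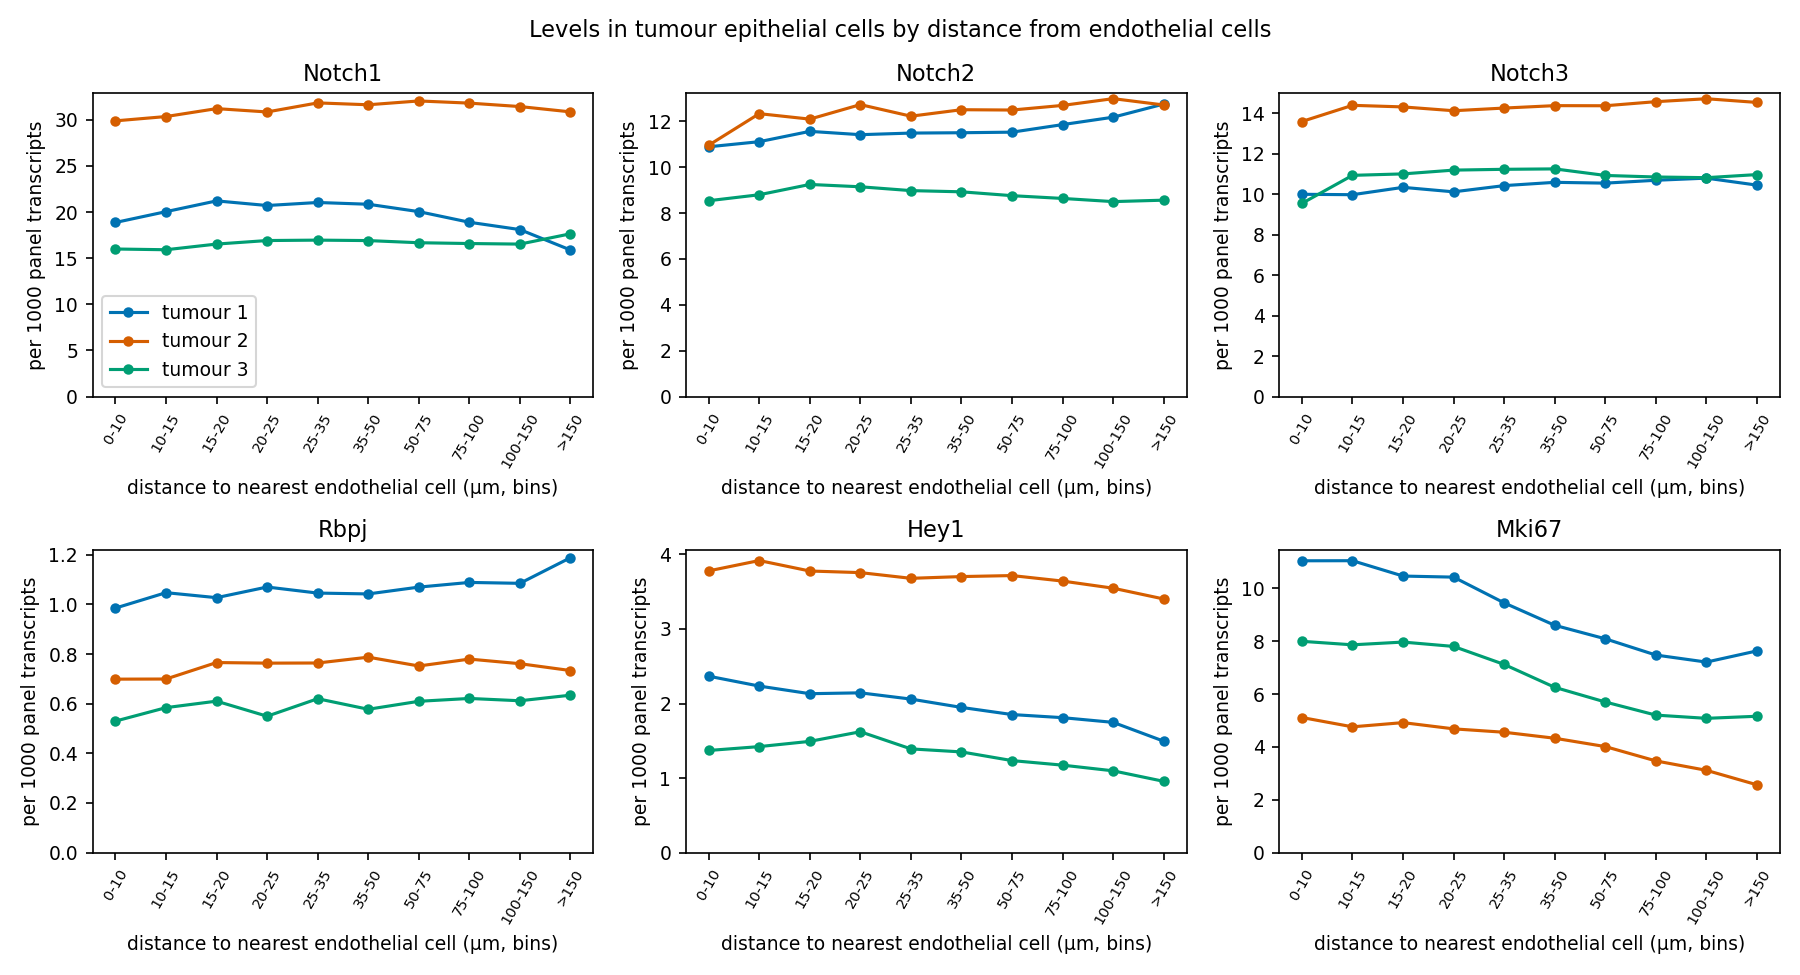
Level of the 5 members and of Mki67 in tumour epithelial cells by distance in µm to the nearest gated endothelial cell, 1 line per tumour, in transcripts per 1000 panel transcripts. Hey1 and Mki67 are lower in the farthest class than in the nearest in all 3 tumours, while Notch1 is at 18.9, 29.9 and 16.0 in the nearest and 15.9, 30.9 and 17.6 in the farthest.

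At the margin of the sections, next to fibroblasts and next to macrophages, edgeR called 0 of the 5 members, with 0 at an unadjusted p under 0.05 in each. At the margin, within 150 µm of the tissue edge, Notch1 stood at 25.6, 32.9 and 16.8, against 18.8, 31.5 and 16.9 at 500 µm or more inside, while 20.5% of genes were higher and 1.16% lower. DESeq2 called Notch2 lower at the margin (-0.44, adjusted p = 0.0044), at 10.9, 10.7 and 7.86, against 12, 13.1 and 8.67 inside. Near fibroblasts the fixed gate left 56 far cells in tumour 1, so that the fit rested on 2 tumours; 8.91% of genes were called, and 8.14% under the stricter gates. Near macrophages Hey1 stood at 1.98, 3.93 and 1.36, against 1.64, 3.39 and 1.10 in far cells (0.26 ± 0.12, adjusted p = 0.51 in edgeR), higher in 3 of 3 tumours. There edgeR called 0 of 258 genes (0%), with 30 at an unadjusted p under 0.05, and DESeq2 called 14; under the stricter gates edgeR called 1.16% of genes.

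Cells next to a ligand-rich neighbour were examined for the signal that Notch carries between touching cells. Tumour epithelial cells with 0 Dll1 transcripts that lay within 15 µm of a cell with at least 3 were set against those with no such cell within 50 µm. Hey1 stood at 2.72, 3.77 and 1.42 in near cells, against 1.70, 2.61 and 0.881 in far cells. It was higher in near cells of 3 of 3 tumours, by 1.55-fold, but the ranges overlapped and edgeR did not call it (log2 fold change 0.63 ± 0.19, adjusted p = 0.43). DESeq2 did (0.69, adjusted p = 0.00015). EdgeR called 0 of 257 genes (0%) in this comparison, with 26 at an unadjusted p under 0.05, and DESeq2 called 13. Notch1 stood at 26.5, 31.4 and 16.5 in near cells, against 18.2, 31 and 17.2 in far cells, and Notch3 at 13, 15.3 and 11, against 10.1, 10.8 and 11.

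At the vessel wall, contacts between endothelial cells and pericytes were few. Endothelial cells with a pericyte within 15 µm numbered 155, 141 and 66, and tumour 3 fell under the minimum of 100 cells, so the fit had 2 tumours. Notch3 stood at 5.53, 7.31 and 4.53 in these cells, against 3.52, 6.03 and 4.72 in endothelial cells with none within 50 µm (0.46 ± 0.20, adjusted p = 0.73 in edgeR). EdgeR called 0 of 253 genes (0%), with 8 at an unadjusted p under 0.05, and DESeq2 called 0. With the stricter gates all 3 tumours entered, and Notch3 stood at 4.72, 5.58 and 3.93, against 3.33, 4.34 and 3.83 (0.34 ± 0.10, adjusted p = 0.015 in edgeR), where 3.57% of genes were called. The gate markers of pericytes were called higher with it under the stricter gates, Rgs5 by 0.86 (at 5.23, 3.50 and 1.94 in near cells, against 3.11, 1.82 and 0.957 in far cells) and Pdgfrb by 0.49 (adjusted p = 0.0020 in edgeR); the part of neighbouring pericyte transcripts was not tested. Pericytes beside endothelial cells had Notch3 at 44.1, 40.2 and 34.8, against 35.3, 31.4 and 31.7 in those farther off (0.34 ± 0.12 over 2 tumours, adjusted p = 0.46 in edgeR). There edgeR called 0 of 187 genes (0%), with 18 at an unadjusted p under 0.05, and DESeq2 called 0. Under the stricter gates Notch3 was at 0.11 ± 0.13.

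Members were found together in single tumour epithelial cells about as often as their separate shares foretell. The log2 ratio of observed to expected co-detection, with expectation taken within bins of cell depth, was at most 0.056 in size on average over tumours among the 10 pairs, for Rbpj with Hey1 (-0.02, -0.03 and -0.12). Notch3 with Hey1 was at 0.03, 0.04 and 0.05, and Notch1 with Hey1 at 0.02, 0.01 and 0.04. For comparison, the middle 90% of 8646 pairs of genes above Blank ran from -0.14 to 0.13, -0.13 to 0.16 and -0.18 to 0.16, which holds every member pair. A gene found in most cells bounds the ratio from above, and Notch1 was found in 75.5%, 92.2% and 76.4% of these cells. Notch2 was found in 65.8%, 73.1% and 61.7% of them, and Notch3 in 61.6%, 75.6% and 67.4%. The range of all pairs therefore says little about pairs with a receptor. In cells of at least 50 transcripts thinned to 50, the pair with the largest mean ratio in size was again Rbpj with Hey1 (-0.08, -0.04 and -0.16). Pairs of other genes were not thinned. The partner with the highest ratio was Arg1 for Hey1 (0.23, 0.09 and 0.29) and Wif1 for Rbpj (0.17, 0.18 and 0.09). Hey1 with Dll1 was at 0.28, 0.07 and 0.24, and Hey1 with Hes1 at 0.18, 0.10 and 0.20. Pairs of Blanks had medians of 0.11, 0.20 and 0.17, so ratios of this size also arose between codes with no target.

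In space, Notch1 had the highest Moran's I of the members. Moran's I, which is near 0 for a gene scattered at random among neighbours and near 1 for a gene in solid patches, was 0.184, 0.141 and 0.179 for Notch1 over the 10 nearest tumour epithelial cells. That placed it at ranks 27, 47 and 42 of the 132 genes above Blank. Notch3 had 0.058, 0.112 and 0.097, Notch2 0.049, 0.106 and 0.056, and Hey1 0.066, 0.054 and 0.043. Rbpj, at 0.0058, 0.0069 and 0.0046, was close to the median Blank of 0.0023, 0.0043 and 0.0035. The median gene above Blank was at 0.062, 0.098 and 0.094. Members also differed in abundance. Mean counts per cell were 2.21, 4.68 and 2.24 for Notch1, 0.212, 0.537 and 0.153 for Hey1 and 0.120, 0.113 and 0.0814 for Rbpj. The part of abundance in the order of the members was not tested. One Blank, number 16, was itself clustered, at 0.208, 0.0739 and 0.251.

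**Figure D3:**
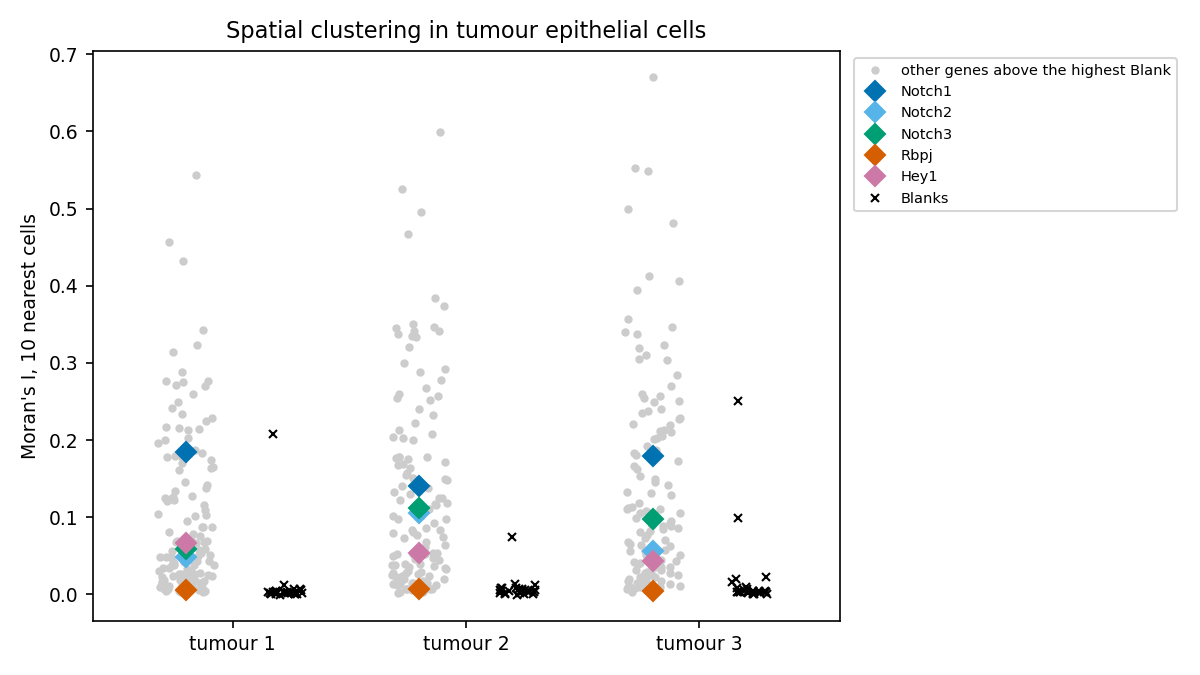
Moran's I of each gene in tumour epithelial cells of the 3 tumours; diamonds are the members, grey dots the other genes above Blank and crosses the Blanks. Notch1 is the highest member in each tumour (0.184, 0.141 and 0.179) and Rbpj sits among the Blanks.

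Over tiles of 100 µm, each with at least 30 tumour epithelial cells (3858, 2239 and 4196 tiles), the level of Notch1 ran from 9.67 at the 5th to 36.6 at the 95th percentile in tumour 1, from 17.8 to 46.8 in tumour 2 and from 7.21 to 30.9 in tumour 3. Hey1 ran from 0.335 to 4.27, from 1.35 to 6.16 and from 0.167 to 2.50. Tiles rich in Notch1 were also rich in Hey1: its median was 2.52 in the top 20% of tiles by Notch1, against 1.24 in the bottom 20%, in tumour 1, 4.0 against 2.72 in tumour 2 and 1.13 against 0.622 in tumour 3. All genes of a tile are divided by the same panel total, and tiles of 1 section share neighbouring tissue, so these are descriptions without a test. Pearson's r over tiles was 0.37, 0.28 and 0.22 for Hey1 with Notch1, 0.19, 0.51 and 0.11 for Hey1 with Notch3, and 0.32, 0.17 and 0.31 for Hey1 with Dll1. By Dll1, the Hey1 median was 2.33 in the top 20% against 1.31 in the bottom 20% in tumour 1, 3.81 against 2.82 in tumour 2 and 1.37 against 0.643 in tumour 3.

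The members did not all share one map. Notch2 and Notch3 went together (0.19, 0.56 and 0.38), but Notch1 with Notch2 was at -0.27, 0.04 and 0.15, which differs in sign between tumours. Notch1 with the ligand Jag1 was at -0.47 in tumour 1, 0.26 in tumour 2 and -0.08 in tumour 3. Rbpj was negative with Hey1 in all 3 tumours (-0.15, -0.07 and -0.16). It was also negative in each tumour with Notch1 (-0.18, -0.11 and -0.11), Notch3 (-0.10, -0.22 and -0.16), Dll1 (-0.21, -0.21 and -0.15) and Dll4. With Jag2 it was positive (0.01, 0.11 and 0.10), and with Notch2, Jag1 and Hes1 the sign differed between tumours. The largest absolute r of any member with any Blank was 0.13, 0.18 and 0.27 in tumours 1, 2 and 3. Notch2 with Notch3 exceeded it in all 3 tumours, Hey1 with Notch1 and Hey1 with Notch3 in tumours 1 and 2, Hey1 with Dll1 in tumours 1 and 3, and Rbpj with Hey1 in tumour 1. Rbpj also exceeded it with Notch1 and Dll4 in tumour 1, with Notch3 in tumour 2 and with Dll1 in tumours 1 and 2.

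**Figure D4:**
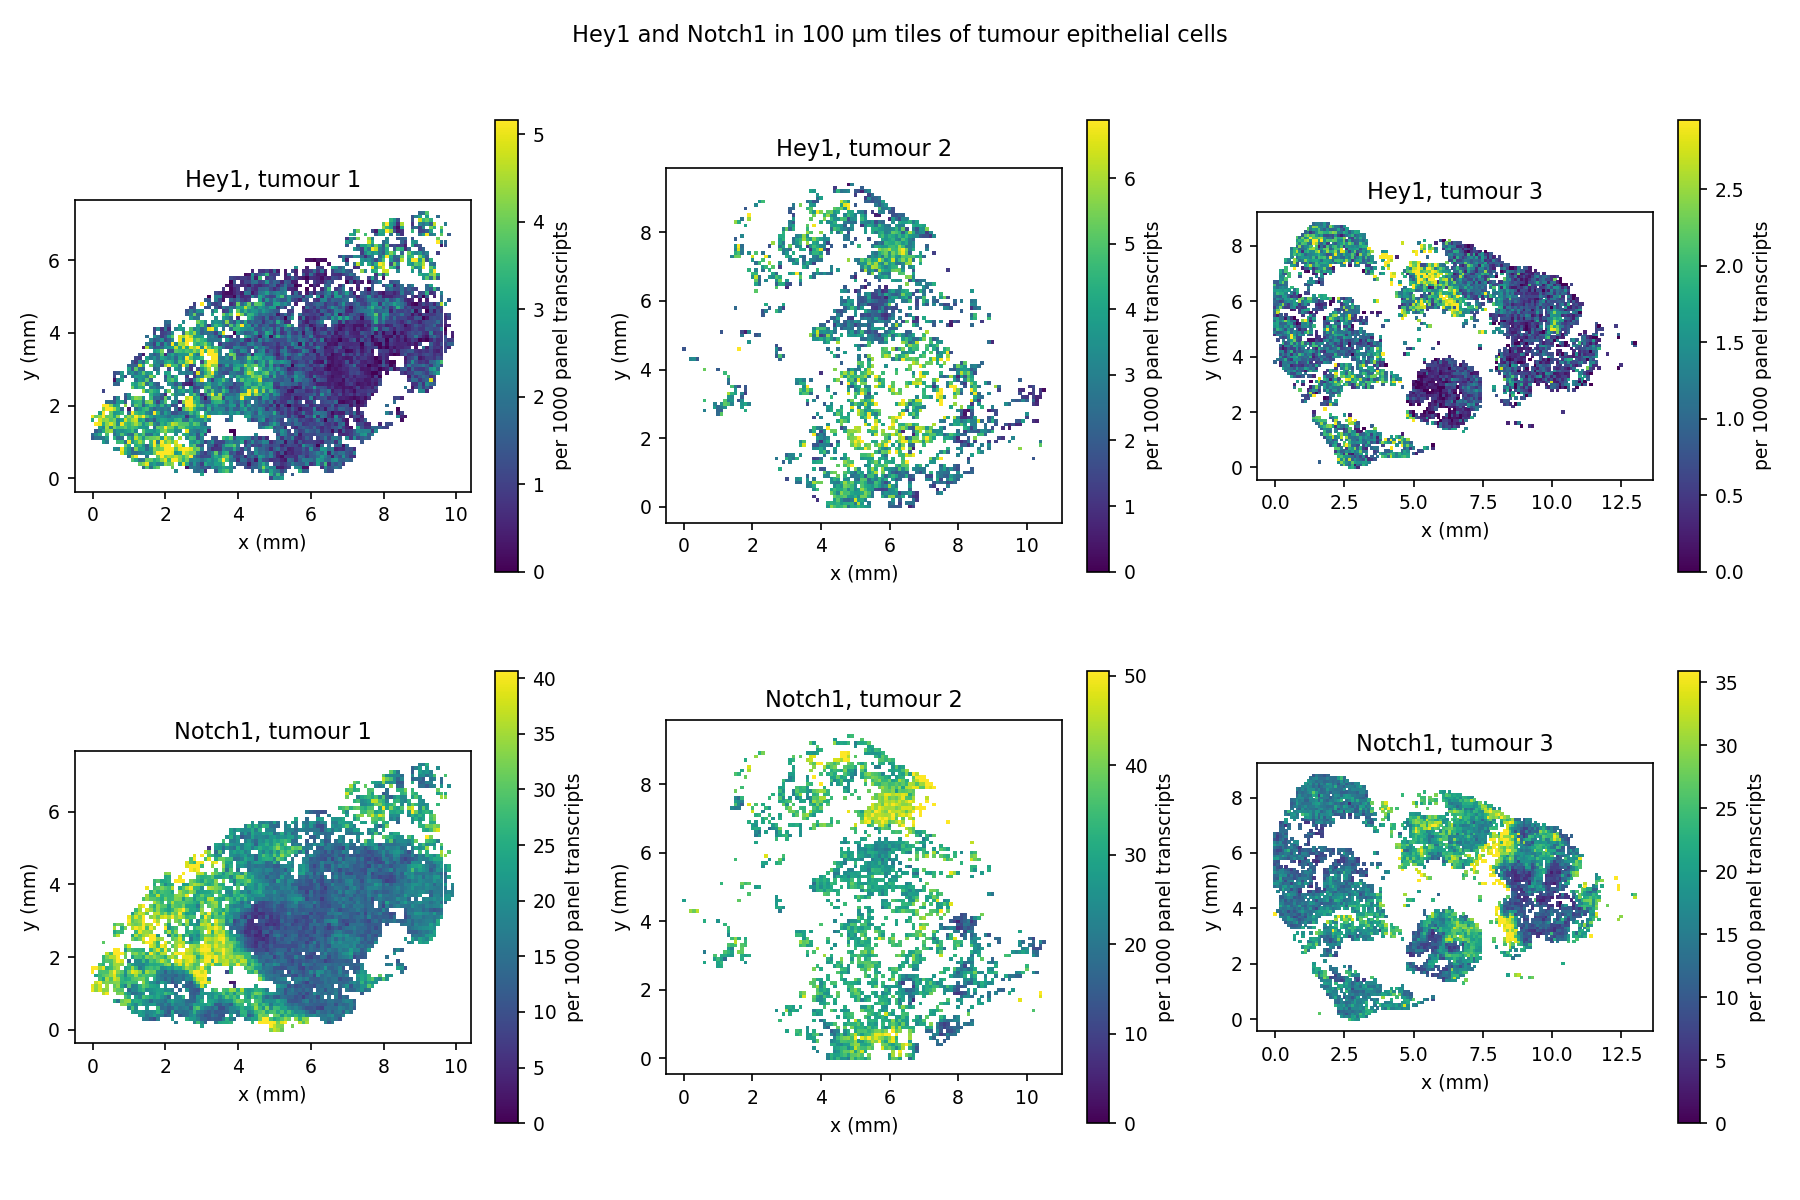
Level of Hey1 (top row) and Notch1 (bottom row) in tumour epithelial cells over 100 µm tiles of the 3 sections, in transcripts per 1000 panel transcripts, with the colour limit at the 98th percentile of each map. Both genes are highest in tumour 2, and the Hey1 median of tiles in the top 20% by Notch1 is above that of the bottom 20% in each tumour (2.52 and 1.24 in tumour 1).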

How the data were processed

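Per the labels, the sections come from paraffin-embedded tumours and were imaged by MERFISH. The deposited tables hold counts of decoded transcripts per segmented cell for 258 genes and 27 Blank codes, with no normalization, and, per the file headers, each cell's position and volume, a signal read as cubic micrometres; positions were read as micrometres. The submitters' processing notes name Scanpy 1.9.3; no source used here gives the decoder or the segmentation.

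Cells were kept from 20 panel transcripts up, with volumes between 50 cubic micrometres and 3 times the median of their section. A class needed at least 3 transcripts from at least 2 of its markers, and cells passing several stromal or basal gates were left out. Under the rule that a marker exceed the highest Blank in every section no endothelial, macrophage or T or NK class formed; the rule was dropped for the first 2 of these, and T or NK cells were not compared. The stricter gates were added after values were seen. The members, lists and tests were chosen with earlier results of these data known. Named genes are the 5 members, the other 6 Notch genes on the panel, the 3 genes most like each member (Pearson correlation of log2 of the level plus 0.1, centred by tumour), the co-detection partner with the highest ratio, and gate markers of neighbour classes; 1 gene that this rule names is not reported here.

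Counts were summed per tumour and class, with the panel total as library size, and tested with edgeR 4.0.16 (limma 3.58.1, R 4.3.3): quasi-likelihood F-test, two-sided, tumour as block, Benjamini-Hochberg adjustment over all panel genes tested, threshold 0.05. Sums from fewer than 100 cells were left out. The class sums of a tumour come from the same section, which is where the pairing comes from. On simulated sums the test recovered the changed genes, but unchanged genes made up more of its calls than the threshold sets. DESeq2 1.42.0, TMM factors, cell volume as library size, other gates, filters and distances, Blank subtraction, no block and each tumour left out were alternatives. Depth ranged from 94 to 106 transcripts in the median kept cell. No p-value was computed from cells.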

Additional observations from a re-analysis of the deposited data

How the results depend on the processing

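Of the 39 member values that passed a test or lay more than 2 SE from 0, Notch3 in pericytes against tumour epithelial, endothelial and fibroblast cells, Notch2 in pericytes and Notch2, Notch3 and Rbpj in endothelial against tumour epithelial cells kept direction and call under each of the 21 alternatives run for them. The other 36 member values, set apart after the alternatives had been run because they lay within 2 SE of 0, were not called under either set of gates and were called by no alternative with the opposite sign, changed sign in 110 of 692 alternative values. Of the pericyte calls against tumour epithelial cells, 5 with the tumour as block, 2 were left with no replicate block. The number of members called without the block was 3 for endothelial, 0 for fibroblast and 0 for macrophage cells, 1 for pericytes against endothelial cells and 1 for pericytes against fibroblasts; the spread between tumours then enters the error.

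The fibroblast count of 1 became 0 with TMM factors, with cell volume, with gate markers left out and without any replicate, and 5 with the stricter gates (4 with gate markers left out as well, 5 with volume or TMM factors, 5 without each replicate). The macrophage count of 2 became 4 with volume, DESeq2, a gate of 5 transcripts or the stricter gates (5 with gate markers left out or volume, 4 with TMM factors, 4 without each replicate), and ranged from 1 to 2 without a replicate. The basal keratin count of 0 became 1 with a gate of 5 transcripts, with cells of several gates given to the larger one and with the stricter gates, and 3 with those and TMM factors. Pericytes against fibroblasts gave 5 members, against 3, with volume. The cycling count of 0 became 2 with volume, 3 with DESeq2 and 1 with Blanks in the fit, that of the margin 1 with DESeq2, that near macrophages 2 with volume and that near Dll1-high cells 1 with DESeq2. Near vessels 1 member was called with volume, DESeq2, the stricter gates with volume, in cells without neighbour markers, in cells without Mki67 or Top2a, and 0 to 1 without a replicate. Endothelial cells near pericytes gave 1 with the stricter gates, alone or with gate markers left out, volume or TMM factors, and with these gates 0 to 1 without a replicate.

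Signs turned as follows, in log2 units. Notch1 in endothelial against tumour epithelial cells (-0.06) was 0.33 with TMM factors, 0.29 with DESeq2, 0.30 with stricter gates and TMM factors, -0.15 to 0.059 without a replicate, and 0.019 with stricter gates without replicate 2. Notch2 in macrophages (0.07) was -0.20 with volume, -0.10 with DESeq2 and -0.53 with stricter gates and volume. Hey1 in pericytes against endothelial cells (0.05) was -0.18 with TMM factors, -0.21 with DESeq2, -0.19 with a gate of 5 transcripts, -0.084 with cells of several gates reassigned, -0.44 with stricter gates, and with those -0.34 with gate markers left out, -0.40 with volume, -0.53 with TMM factors and -0.50, -0.46 and -0.38 without replicates 1, 2 and 3. In pericytes against fibroblasts under stricter gates Notch1 (-0.20) was 0.92, 0.26 with gate markers left out, 0.85 with volume, 0.75 with TMM factors and 0.98, 0.90 and 0.86 without replicates 1, 2 and 3; Rbpj (-0.56) was 0.27, 0.20 with volume, 0.11 with TMM factors and 0.33, 0.26 and 0.23; Hey1 (-0.36) was 0.60, 0.52 with volume, 0.44 with TMM factors and 0.71, 0.56 and 0.53; Notch2 (-0.60) was -0.015, and 0.050, -0.12 and 0.028 without replicates 1, 2 and 3. Notch1 in cycling cells (-0.18) was 0.056 with volume. The cause was not tested. Fits without replicates 1 or 2 could not be made for contacts between endothelial cells and pericytes under the fixed gates, nor without replicates 2 or 3 near fibroblasts, since 1 tumour was then left. T or NK cells formed no class, so their alternatives were not run. Rbpj was below the highest Blank in pericytes and endothelial cells under both sets of gates and in fibroblasts under the stricter ones; depth was not tested as the cause.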

Other observations

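The ligand side of the vessel wall was measured in the same sums as the receptors. Dll4 was lower in pericytes than in endothelial cells, at -2.74 ± 0.17 on the log2 scale (adjusted p = 6.4e-09 in edgeR, n = 3 tumours), and so was Jag2, at -2.40 ± 0.23 (adjusted p = 1e-06); Dll1, the remaining ligand called, was lower too. Jag1 did not pass the test with the gates as fixed and was higher in pericytes with the stricter gates, by 0.99 ± 0.26 (adjusted p = 0.0068 in edgeR). Against fibroblasts, pericytes had more Dll4 (1.88 ± 0.16) and Jag1 (1.14 ± 0.25) and less of the repressor Hes1 (-0.38 ± 0.15, adjusted p = 0.046 in edgeR). Hes1, at 0.555, 0.808 and 0.635 in pericytes, was below the highest Blank of those cells (1.11, 1.82 and 1.10) in all 3 tumours. Its value thus compares a false-detection level with a measured one.

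Blank 16, a code with no target, was not evenly spread. Its highest count in a single cell was 70 in tumour 1, 320 in tumour 2 and 69 in tumour 3. In tumour 2, 159 cells with at least 5 counts held 37.0% of all its counts, and the share was 4.81% in tumour 1 and 6.02% in tumour 3.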
